A study of Mus musculus with 21 samples.

Results

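The genes described here are 10 factors that remove maternal mRNA when a mouse egg becomes an embryo. They are Btg4, Cnot6l, Cnot7, Cnot8, Zfp36l2, Zfp36l1, Ythdf2, Pabpn1l, Dcp1a and Dcp2. They were chosen by name for their known role. Each merged long-read transcript was given to the gene whose exons it overlapped most on the same strand, and a gene's value was the summed TPM (a unit that corrects for transcript length and gives each library the same total) of its transcripts. Of the 10 genes, 8 had a transcript, among 10917 genes with one. Zfp36l2 (chromosome 17, 84183931 to 84187947, minus strand) and Zfp36l1 (chromosome 12, 80107754 to 80113013, minus strand), which bind AU-rich elements and recruit the CCR4-NOT deadenylase, had none in the merged set and were not analysed here.

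The study sequenced RNA of mouse sperm, oocytes, 1-cell, 2-cell, 4-cell and 8-cell embryos and blastocysts, with 2 short-read libraries and 1 long-read pool at each of the 7 stages. Oocytes came from C57/BL6J females, sperm from the epididymis of DBA/2J males (DBA/2N in one protocol), and embryos from a DBA/2J father and a C57/BL6J mother. No group carried a mutation or a drug treatment, but all females were superovulated at 3 to 5 weeks of age, and embryos grew in KSOM medium after isolation at 20 h. Samples were taken 20 h after the hCG injection for oocytes, 24 to 26 h for 1-cell, 46 to 48 h for 2-cell, 54 to 58 h for 4-cell and 68 to 70 h for 8-cell embryos, and 94 to 96 h for blastocysts. Each library is a pool of many cells or embryos, so a lower level cannot be split into fewer cells with a transcript and less RNA per cell. The RNA was amplified by Smart-seq2, which copies RNA from its poly(A) tail. A change in level therefore cannot be told apart from a change in tail length. Oocytes were ovulated eggs, so the growth phase of the oocyte was not sampled.

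A growing oocyte stores mRNA and then stops transcription, and the egg and early embryo live on this store. The store is cleared in an early wave run by factors the oocyte made and in a later wave that needs transcription from the embryo's genome. Clearance starts by shortening the poly(A) tail: the CCR4-NOT complex does this through the nucleases CNOT7 or CNOT8 and CNOT6 or CNOT6L, and BTG4 brings the complex to mRNA. PABPN1L, a poly(A)-binding protein of the egg, works with BTG4. YTHDF2 reads N6-methyladenosine (m6A) and recruits CCR4-NOT, and DCP1A with the enzyme DCP2 removes the 5′ cap from the shortened mRNA.

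The 280 bases around the annotated start (250 before, 30 after) are given for Btg4, Pabpn1l and Ythdf2, the members with the steepest falls and the one with a rise. The sequences are from RefSeq on GRCm38.p6, 5′ to 3′ on the gene's strand, and capitals mark the 30 bases after the annotated start. The windows are chr9:51115751-51116030 (plus), chr8:122622706-122622985 (minus) and chr4:132212227-132212506 (minus).
Btg4: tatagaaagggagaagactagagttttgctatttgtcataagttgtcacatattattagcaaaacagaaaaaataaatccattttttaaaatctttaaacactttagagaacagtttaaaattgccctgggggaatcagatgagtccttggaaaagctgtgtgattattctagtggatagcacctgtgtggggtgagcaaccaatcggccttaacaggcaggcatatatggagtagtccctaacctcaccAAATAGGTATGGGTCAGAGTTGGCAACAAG
Pabpn1l: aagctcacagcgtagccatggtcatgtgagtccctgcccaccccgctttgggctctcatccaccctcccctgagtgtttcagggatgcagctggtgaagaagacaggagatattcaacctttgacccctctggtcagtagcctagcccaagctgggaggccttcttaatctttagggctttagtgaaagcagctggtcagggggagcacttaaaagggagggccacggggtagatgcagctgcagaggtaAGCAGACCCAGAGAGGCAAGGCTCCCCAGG
Ythdf2: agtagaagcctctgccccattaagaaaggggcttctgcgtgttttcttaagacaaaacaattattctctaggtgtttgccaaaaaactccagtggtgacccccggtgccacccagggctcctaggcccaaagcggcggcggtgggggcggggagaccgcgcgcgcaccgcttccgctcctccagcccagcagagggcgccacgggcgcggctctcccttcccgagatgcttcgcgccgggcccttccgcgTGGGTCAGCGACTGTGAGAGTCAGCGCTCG

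The 3 windows differed in base composition. Btg4 had 38.6% G+C and 1 CpG, and of 32851 promoter windows of this length 8.29% had lower G+C. Pabpn1l had 56.8% G+C and 3 CpG, and Ythdf2 had 63.9% G+C and 25 CpG, where the median window had 52.5% and 6. TATAAA, found on either strand in 13.1% of all windows, was in none of the 3. CANNTG, the E-box core, on either strand, was in the Btg4 and Pabpn1l windows but not in that of Ythdf2, against 70.1% of all windows. TAATTA or TAATTG, in 11.9% of all windows, was in that of Ythdf2 alone among the 3. Of the other members that fell, Dcp1a and Cnot6l did not share the low CpG numbers, and windows of Cnot7 and Dcp2 are not given here. The Dcp1a window had 66.1% G+C, 25 CpG and CANNTG. Cnot6l windows had 67.9% to 83.6% G+C and 30 to 46 CpG, and the one with 83.6% lacked CANNTG. The nearest merged start of Cnot6l lay 30434 to 30877 bases from these annotated starts. Whether the measured Cnot6l transcripts start in these windows is thus not known. The merged transcripts of Btg4 started exactly at the annotated base, and the nearest merged start of Ythdf2 lay 23 bases from it. For Pabpn1l the nearest merged start lay 13 bases from it, in a 5-exon form at no more than 0.95 TPM in any library. The main Pabpn1l form started further upstream, at 122622812 against the annotated 122622735. Part of the lower-case sequence is thus transcribed in that form.

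The ends and junctions on which later results turn are shown as RNA-strand sequences of at most 30 bases, taken from GENCODE vM21 transcripts. In the 3′-end sequences capitals mark the polyadenylation hexamer AATAAA. In the Cnot7 junctions capitals mark the last 15 bases of each alternative first exon (chr8:40515704-40515718 and chr8:40511540-40511554, minus strand), and lower case the shared second exon.
Cnot7 upstream first exon junction: CCCACGACAAAAGAGgtgcataagtaaagg
Cnot7 downstream first exon junction: AGCTCAGAGACCCAAgtgcataagtaaagg
Cnot7 3′ end, chr8:40492548-40492577: agcttttgtaAATAAAggcttcaaaaatgt
Cnot7 3′ end of the 3-exon form, chr8:40507318-40507347: ttagaaagatAATAAAaactttctaatttc
Cnot8 distal 3′ end, chr11:58118561-58118590: aattttgtaaAATAAAgattgctttttaac
Btg4 near 3′ end, chr9:51119575-51119604: gaagacttgaAATAAAtactcttgtgtttt

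Stage labels were set beside marker genes. The summed level of 5 oocyte genes (Zp1, Zp2, Zp3, Gdf9, Bmp15) was 4410 and 15894 TPM in oocytes and 0.547 to 112 TPM in 4-cell embryos and later. The 5 sperm genes summed to 14002 and 20767 TPM in sperm and at most 17.0 TPM elsewhere. The 5 blastocyst genes summed to 11437 and 37622 TPM in blastocysts and at most 742 TPM elsewhere. Of 8 cumulus cell genes only Amhr2 had a transcript, at no more than 0.206 TPM in oocytes and 1-cell embryos, 44.9 to 107 TPM in 2-cell and 4-cell embryos and 23.0 and 34.7 TPM in 8-cell embryos. Of 5 epididymal genes Crisp1 and Lcn8 had one, summing to 2014 and 338 TPM in sperm. The 2-cell libraries stood apart: their median SD between replicates was 1.04 on the log2 scale, against 0.186 to 0.669 at the other stages from the oocyte on. Oocyte genes summed to 73.6 TPM in 2-cell replicate 1 and 708 TPM in replicate 2, and 5 genes of 2-cell transcription to 41.2 and 509 TPM. The genes of 2-cell transcription summed to 51.0 and 69.3 TPM in 4-cell embryos, so they did not set 2-cell replicate 1 apart from that stage. For the tests at the 1-cell to 2-cell step, values without single 2-cell libraries are therefore given too.

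BTG4, the adaptor that tethers CCR4-NOT to mRNA, came from one of the most abundant transcripts of the egg (chromosome 9, 51060901 to 51119875, plus strand, ENSMUSG00000032056.10). Btg4 stood at 3528 and 9910 TPM in oocytes, ranks 40 and 10 among all genes, at 5865 and 1441 TPM in 1-cell embryos and at 51.8 and 671 TPM in 2-cell embryos. Levels were 19.4 and 23.9 TPM in 4-cell embryos, 0.524 and 0.530 TPM in 8-cell embryos and 7.39 and 0.0908 TPM in blastocysts. The oocyte and 1-cell libraries overlapped, every 2-cell library lay below them, and every 4-cell library lay below the 2-cell ones. Sperm held 2.07 and 1.84 TPM. The mean of 6719 ± 4512 TPM (SD, n = 2) in oocytes shows how far the replicates differed.

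Pabpn1l (chromosome 8, 122619471 to 122622739, minus strand, ENSMUSG00000069867.3), the partner of BTG4, had the same order of stages. It measured 862 and 1226 TPM in oocytes, 488 and 158 TPM in 1-cell embryos and 2.12 and 8.44 TPM in 2-cell embryos. From the 4-cell stage on no library was above 2.00 TPM, and 8-cell replicate 1 was listed at 0. Here the oocyte, 1-cell, 2-cell and 4-cell libraries did not overlap at any step. Sperm held 0.153 and 0.513 TPM.

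Of the nucleases, Cnot7 (chromosome 8, 40492540 to 40515847, minus strand, ENSMUSG00000031601.16) was high in eggs and still had a value at every later stage. From the 2-cell stage on these values may include reads of a 3-exon form that is described below and does not hold the full coding sequence. Cnot7 stood at 783 and 777 TPM in oocytes, 772 and 1207 TPM in 1-cell embryos and 97.7 and 416 TPM in 2-cell embryos. Later levels were 150 and 72.2 TPM in 4-cell embryos, 62.3 and 77.0 TPM in 8-cell embryos and 38.7 and 76.1 TPM in blastocysts. The 4 oocyte and 1-cell libraries lay above all later ones, while each later stage overlapped the next, and blastocysts overlapped sperm at 17.0 and 74.2 TPM.

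Cnot8 (chromosome 11, 58104153 to 58118594, plus strand, ENSMUSG00000020515.13), the paralogue of Cnot7 that takes the same place in the complex, had the smallest change in the comparison of eggs with cleaving embryos. Its levels were 224 and 746 TPM in oocytes, 201 and 190 TPM in 1-cell, 211 and 203 TPM in 2-cell and 385 and 249 TPM in 4-cell embryos. They were 111 and 168 TPM in 8-cell embryos, 53.6 and 60.9 TPM in blastocysts and 10.5 and 20.3 TPM in sperm. Libraries from the oocyte to the 4-cell stage all lay between 190 and 746 TPM, and blastocysts lay below every earlier embryo library.

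Cnot6l (chromosome 5, 96070333 to 96164171, minus strand, ENSMUSG00000034724.18) encodes the other type of nuclease in the complex. It measured 53.0 and 27.3 TPM in oocytes, 37.5 and 72.7 TPM in 1-cell embryos and 11.7 and 81.0 TPM in 2-cell embryos, one library below and one above all eggs. It then stood at 7.03 and 9.39 TPM in 4-cell embryos, 5.55 and 1.77 TPM in 8-cell embryos, 4.34 and 0.363 TPM in blastocysts and 2.91 and 2.31 TPM in sperm.

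Dcp1a (chromosome 14, 30479535 to 30527063, plus strand, ENSMUSG00000021962.9), the decapping activator, was high in eggs and low from the 4-cell stage. Oocytes held 581 and 2041 TPM, 1-cell embryos 592 and 137 TPM and 2-cell embryos 7.10 and 89.6 TPM. All later libraries and both sperm libraries lay between 3.08 and 15.9 TPM. Dcp2 (chromosome 18, 44380502 to 44424969, plus strand, ENSMUSG00000024472.9), the decapping enzyme, peaked later. It stood at 65.8 and 43.7 TPM in oocytes, 175 and 232 TPM in 1-cell embryos and 81.0 and 35.6 TPM in 2-cell embryos. Both 1-cell libraries lay above every other library, and all later and sperm libraries lay between 4.16 and 20.9 TPM.

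Ythdf2 (chromosome 4, 132184912 to 132212303, minus strand, ENSMUSG00000040025.17), the m6A reader, ran the other way. Oocytes held 8.54 and 53.3 TPM, 1-cell embryos 26.2 and 59.1 TPM and 2-cell embryos 442 and 46.3 TPM. Later levels were 216 and 136 TPM in 4-cell embryos, 74.9 and 139 TPM in 8-cell embryos, 49.2 and 85.9 TPM in blastocysts and 11.6 and 80.6 TPM in sperm. Its stages, ordered by their means, each overlapped the next, but both 4-cell libraries and both 8-cell libraries lay above all oocyte and 1-cell libraries.

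**Figure D1:**
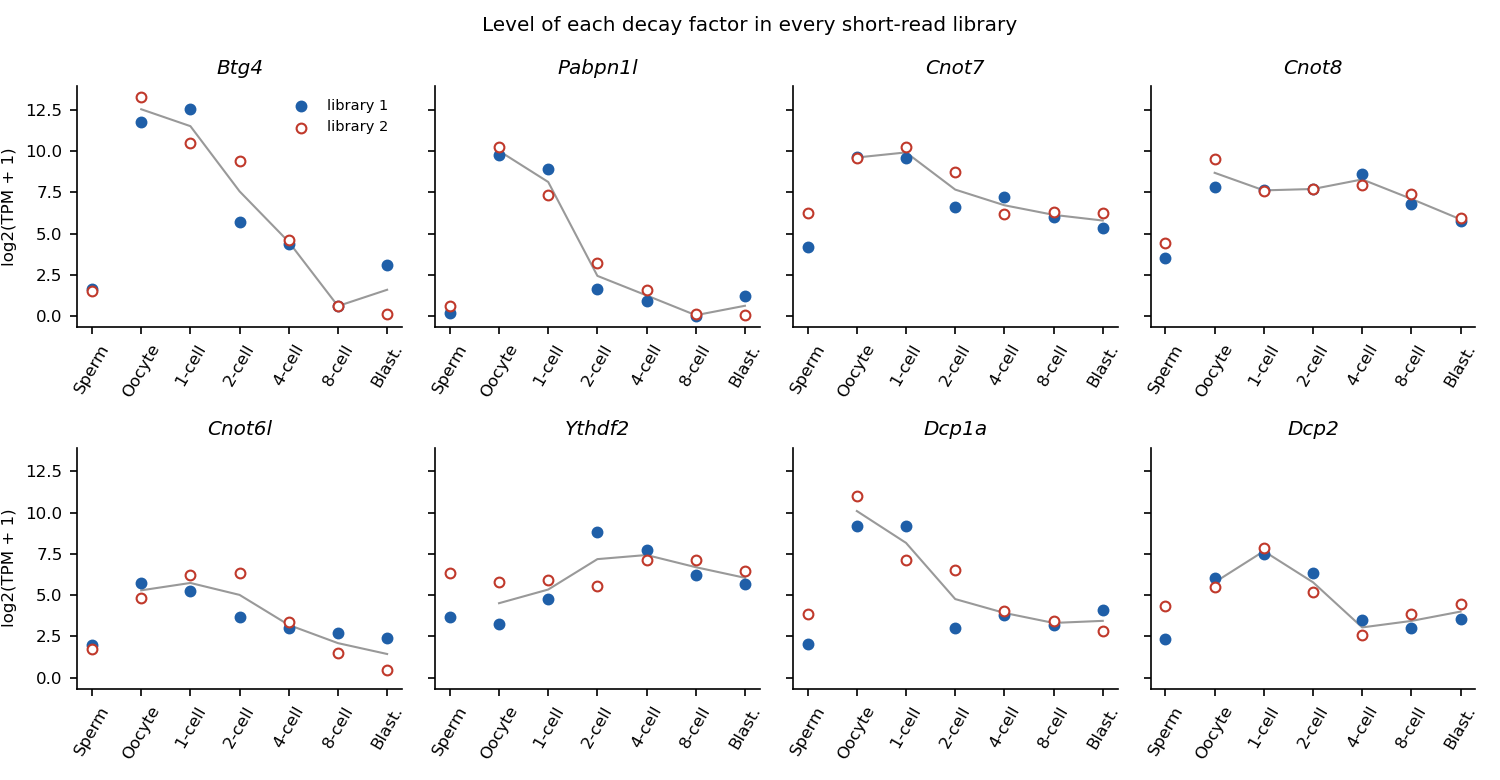
Level of each of the 8 measured genes by stage, as log2(TPM + 1) on the vertical axis, with filled points for replicate 1, open points for replicate 2 and a grey line through the stage means from the oocyte on. Btg4, Pabpn1l and Dcp1a drop between the 1-cell and the 4-cell stage, Cnot8 stays level to the 4-cell stage, and Ythdf2 lies higher in 4-cell embryos (216 and 136 TPM) than in oocytes (8.54 and 53.3 TPM).

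The egg and the cleaving embryo were compared first, since this contrast does not use the 2-cell libraries for either group. The 4 oocyte and 1-cell libraries were set against the 4 4-cell and 8-cell libraries in a limma fit on log2(TPM + 1) over 10000 genes, and a gene was called at a Benjamini-Hochberg adjusted p below 0.05. Of the 8 genes 6 fell, namely Btg4, Pabpn1l, Dcp1a, Dcp2, Cnot7 and Cnot6l, and Ythdf2 rose. Among all tested genes 22.1% fell and 46.2% rose. The median change of the 8 genes was -3.41, against 0.95 for all tested genes. TPM values share one total. Quantile normalization, which gives every library the same distribution of values, set that median to 0.06, with 3215 genes lower and 3321 higher in place of 2214 and 4617.

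Btg4 went from a mean of 5186 TPM in the earlier to 11.1 TPM in the later libraries, 467-fold lower between these means. Its log2 change in the limma fit, which averages log2(TPM + 1) and so differs from that ratio, was -9.46 ± 0.83 (SE, adjusted p = 5.06e-07). Pabpn1l went from 683 to 0.745 TPM, a change of -8.41 ± 0.56 (adjusted p = 7.54e-08). Both partners of the BTG4 pathway were thus reduced to under 1% of their egg level, and for each the 2 sets of libraries did not overlap.

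Dcp1a went from 838 to 11.6 TPM (log2 change -5.51 ± 0.75, adjusted p = 2.10e-05), and Dcp2 from 129 to 8.95 TPM (-3.48 ± 0.51, adjusted p = 3.72e-05). Cnot7 went from 884 to 90.4 TPM (-3.34 ± 0.57, adjusted p = 0.00015) and Cnot6l from 47.6 to 5.93 TPM (-2.87 ± 0.66, adjusted p = 0.00158). For these genes too, all earlier libraries lay above all later ones. The 6 falls were called in each of 17 alternative analyses.

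Ythdf2 rose from a mean of 36.8 to 141 TPM, 3.84-fold between these means. Its log2 change in the limma fit was 2.14 ± 0.74 (adjusted p = 0.0188). This call was kept in 12 of 17 alternatives. It was lost under quantile normalization (1.46, adjusted p = 0.121) and without oocyte replicate 1 (adjusted p = 0.0983), 1-cell replicate 1 (0.0752), 4-cell replicate 1 (0.0595) or 8-cell replicate 2 (0.0682). Cnot8 averaged 340 TPM in the earlier and 228 TPM in the later libraries, which overlapped, and its change of -0.46 ± 0.52 did not pass (adjusted p = 0.449).

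**Figure D2:**
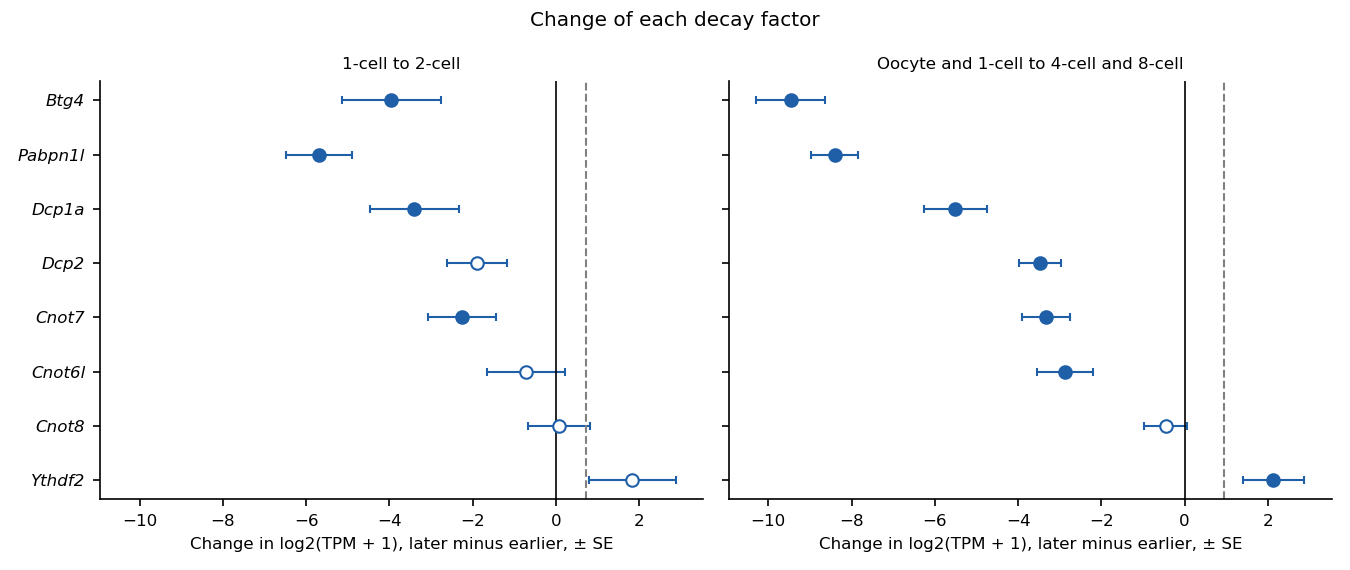
Log2 change with its SE for each gene, from the 1-cell to the 2-cell stage and from oocyte and 1-cell to 4-cell and 8-cell libraries, on the log2(TPM + 1) scale, with filled points for genes called at an adjusted p below 0.05 and a dashed line at the median of all tested genes (0.72 and 0.95). In the second comparison 6 genes are called lower, Ythdf2 is called higher, and Cnot8 is not called.

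The steps between neighbouring stages were then tested in the same fit. From oocyte to 1-cell none of the 8 genes was called, where 0.33% of all genes rose and 0.05% fell. At an unadjusted p below 0.05 limma gave Dcp2 (1.89) and Pabpn1l (-1.88), with adjusted p of 0.38 and 0.45.

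From 1-cell to 2-cell 4 genes fell, Pabpn1l, Btg4, Dcp1a and Cnot7, where 6.2% of all genes fell and 26.1% rose. After quantile normalization 17.6% of all genes fell and 15.9% rose, and the genes called were Pabpn1l, Dcp1a and Dcp2. In the fit without it Pabpn1l changed by -5.68 ± 0.79 (adjusted p = 0.000244) and was called in all 13 alternatives. Btg4 changed by -3.95 ± 1.18 (adjusted p = 0.020) and Dcp1a by -3.40 ± 1.07 (adjusted p = 0.0253). These were called in 8 and 9 of 13 alternatives. Cnot7 changed by -2.25 ± 0.81 (adjusted p = 0.0469), which was called in 4 of 13.

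The calls of Btg4, Dcp1a and Cnot7 rested on single libraries, while that of Pabpn1l held with each library left out. Replicate 2 was above replicate 1 by 3.67 on the log2 scale for Btg4, a gap as large in 4.77% of tested genes, and by 3.48 for Dcp1a, as large in 6.42%. Between leaving out 2-cell replicate 2 and leaving out replicate 1, the change ran from -5.78 to -2.11 for Btg4, from -5.14 to -1.66 for Dcp1a and from -3.29 to -1.21 for Cnot7. Without 2-cell replicate 1 only Pabpn1l and Dcp2 were called, and without 1-cell replicate 1 only Pabpn1l. Without 2-cell replicate 2 the 5 called genes were Btg4, Cnot7, Pabpn1l, Dcp1a and, upward, Ythdf2 (3.45, adjusted p = 0.0159). The higher oocyte marker sum of 2-cell replicate 2 went with its higher Btg4, Pabpn1l, Dcp1a, Cnot7 and Cnot6l and its lower Ythdf2 and Dcp2. Its part in these differences was not tested.

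The other 4 genes did not pass at this step. Dcp2 changed by -1.89 ± 0.72 (adjusted p = 0.0588), Cnot6l by -0.72 ± 0.94 (0.591), Cnot8 by 0.08 ± 0.74 (0.945) and Ythdf2 by 1.84 ± 1.04 (0.195). No direction held for Cnot6l and Cnot8 in all alternatives: the change of Cnot6l was 0.62 without 2-cell replicate 1, and that of Cnot8 was -0.04 under quantile normalization.

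After the 2-cell stage no gene of the group was called between neighbours. From 2-cell to 4-cell, where 1.58% of all genes rose and 1.82% fell, Dcp2 changed by -2.73 ± 0.72 (limma, adjusted p = 0.0515) and Btg4 by -3.06 (adjusted p = 0.137), both with an unadjusted p below 0.05. The change of Btg4 was -4.90 without 2-cell replicate 1 (adjusted p = 0.012) and -1.23 without replicate 2 (0.473), and that of Dcp2 was -2.15 (0.0763) and -3.32 (0.0177). From 4-cell to 8-cell, where 0.77% rose and 0.9% fell, Btg4 alone had an unadjusted p below 0.05 (-3.89, adjusted p = 0.117). From 8-cell to blastocyst, where 1.51% rose and 1.49% fell, 0 genes did. With 2 libraries a stage, the spread between replicates limits what these steps can show.

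Long reads gave the structure of these transcripts. Btg4 had 6 long-read transcripts in the oocyte pool, 7 in the 1-cell pool, 5 in the 2-cell pool and 0 in sperm and from the 4-cell stage on. Cnot6l had 3 in the oocyte and 6 in the 1-cell pool, and Pabpn1l 1 and 2, with 0 at every other stage. Cnot8 had at least 1 in each of the 7 pools, as did Cnot7, and Ythdf2 was missing from the oocyte pool alone. Each stage had 1 long-read pool, so these numbers have no replicate check.

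Not every merged transcript covered its gene. Cnot7, Cnot8, Btg4, Ythdf2 and Pabpn1l each had one with the complete intron chain of an annotated transcript. Dcp1a was held in 3 pieces, of which the 5′ piece covered 40.4% of the coding sequence, Dcp2 in a 5-exon piece with 45.2% of it, and Cnot6l in a 10-exon body with 84.4% and a separate single-exon piece. Summed TPM over pieces is not comparable between these genes, and apart from the ranks given for Btg4, which had a full-length transcript, levels were compared only within a gene.

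Cnot7 had 3 forms with 7 exons and different first exons, of which the 2 with an annotated intron chain were the most abundant in eggs. The upstream first exon (chromosome 8, 40515704 to 40515847, 144 bases, as in Cnot7-203) and the downstream one (40511540 to 40511754, 215 bases, as in Cnot7-201) start 4093 bases apart. Neither holds a coding base, and both join the same second exon, as the junction sequences above show.

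The third 7-exon form, with a first exon at 40511090 to 40511319, stood at 26.7 to 37.6 TPM in oocytes and 1-cell embryos and at 1.22 to 13.6 TPM from the 4-cell stage on, and shares of the annotated pair leave it out. The transcript with the upstream exon stood at 339 and 226 TPM in oocytes, 405 and 561 TPM in 1-cell embryos and 3.65 and 135 TPM in 2-cell embryos. It was at 4.62 and 1.60 TPM in 4-cell embryos and at no more than 0.259 TPM in 8-cell embryos and blastocysts. The transcript with the downstream exon stood at 307 and 425 TPM in oocytes, 207 and 470 TPM in 1-cell, 84.2 and 126 TPM in 2-cell, 128 and 57.6 TPM in 4-cell and 58.0 and 74.0 TPM in 8-cell embryos. The 1-cell long-read pool held no transcript with the downstream exon, so its 1-cell values rest on short reads assigned to the merged set. The upstream exon thus made 34.7% to 66.2% of the pair in the 4 egg and 1-cell libraries and 0.167% to 3.49% in the 4 4-cell and 8-cell libraries. Of all 3 forms it made 32.8% to 62.6% and 0.16% to 3.17%. In 2-cell embryos it made 4.16% in replicate 1 and 51.7% in replicate 2, the library with the higher oocyte marker sum. Sperm, at 1.58% and 1.19%, held nearly all of the pair as the downstream form. From the 2-cell stage on, reads of a 3-exon form that begins with the downstream exon, described below, may be counted with the downstream transcript. They may thus lower the upstream share, so these shares do not compare full-length forms alone.

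In a limma fit on log2(TPM + 1) of 20250 transcripts, the upstream form fell by 7.43 ± 0.84 on the log2 scale from the egg and 1-cell to the 4-cell and 8-cell libraries (adjusted p = 1.62e-05). The downstream form fell by 2.15 ± 0.55 (adjusted p = 0.00442). Of all transcripts 21.6% fell and 46.1% rose in this comparison. From 1-cell to 2-cell, where 5.11% of transcripts fell and 22.9% rose, the upstream form changed by -4.25 ± 1.18 (adjusted p = 0.0195), and the downstream form by -1.59 ± 0.78 (adjusted p = 0.149). The former was -6.68 without 2-cell replicate 2 (adjusted p = 0.000384) but -1.81 and no longer called without 2-cell replicate 1 (adjusted p = 0.084), nor was it called without either 1-cell library (adjusted p = 0.0739 and 0.108). With each library left out in the comparison of eggs with cleaving embryos, both forms were still called.

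The difference between forms was tested as usage, the log2 ratio of one isoform to the rest of its gene. Over the 5 neighbouring steps the 15 isoforms of the group gave 75 tests, of which limma called 0 at an adjusted p below 0.05 and 13 at an unadjusted p below 0.05. At the latter threshold limma gave 870, 3215, 1817, 1277 and 1064 of all 10407 isoforms at these steps in turn. Of all 10407 isoforms tested, usage changed in 15.7% between the 1-cell and the 2-cell stage. It changed in 0.135% at the step before, and in 0.211%, 0.307% and 0.211% at the next 3 steps in turn. From 1-cell to 2-cell the upstream Cnot7 form changed by -2.67 ± 0.91 (adjusted p = 0.0765), and it was called in 1 of 16 alternatives. That was without 2-cell replicate 2 (-4.32, adjusted p = 0.00517), while without 2-cell replicate 1 it changed by -1.02 (adjusted p = 0.275). A comparison of egg and 1-cell with 4-cell and 8-cell libraries, added after the steps had been seen, called 6 of the 15 isoforms. That count lay near the share of all isoforms, of which 20.7% gained and 22.4% lost usage in this comparison. There the upstream Cnot7 form changed by -4.89 ± 0.64 (adjusted p = 0.000338) and the downstream form by 3.64 ± 0.77 (adjusted p = 0.00441). A 2-exon 3′ piece of Cnot7 was also called lower (-2.17, adjusted p = 0.0182). Reads of the 3-exon form described below, which begins with the downstream exon, may add to the downstream form in these ratios. The other 3 calls were isoforms of Btg4, whose 8-cell levels of under 1 TPM leave the ratio to the pseudocount.

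A further Cnot7 transcript appeared in the 4 long-read pools from the 2-cell stage on. It had 3 exons and began with the downstream first exon. It matched an annotated transcript that is not classed as coding and held 311 of the 855 coding bases (36.4%). An AATAAA lay 14 bases before its 8-cell end, in the sequence above. It was the only Cnot7 transcript in the 8-cell and blastocyst pools and was not in the merged set, so its reads in exons shared with the merged Cnot7 forms may be counted in the gene and isoform values above. In the separate quantification of each stage against its own long-read transcripts it stood at 101 and 30.9 TPM in 2-cell, 145 and 61.9 TPM in 4-cell and 113 and 176 TPM in 8-cell embryos, and at 60.8 and 177 TPM in blastocysts. Reads of full-length Cnot7 and of this short form cannot be told apart where they share exons, and levels from separately made tables were not tested against each other.

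Cnot8 differed between stages in where its long-read transcripts ended. One end lay at 58117845 to 58117848 and another at 58118587 to 58118597 on chromosome 11, 749 bases further. The oocyte and the 1-cell pool held only transcripts with the distal end, with the AATAAA shown above, while all other pools held both. Neither AATAAA nor ATTAAA was in the last 50 bases before the near end, where 71.1% of 13611 merged transcripts have one of them.

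In the stage's own quantification the near end took 73.2% and 11.9% of Cnot8 TPM in 2-cell embryos, 65.1% and 60.3% in 4-cell embryos, 84.4% and 82.3% in 8-cell embryos and 65.6% and 78.8% in blastocysts. In sperm it took 42.4% and 60.1%. The 2-cell replicates again differed, the one with more oocyte marker RNA holding less of the near end. Salmon could assign reads to the near end only at stages whose long reads contained it, so its absence from oocyte and 1-cell embryos rests on 1 long-read pool each.

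**Figure D3:**
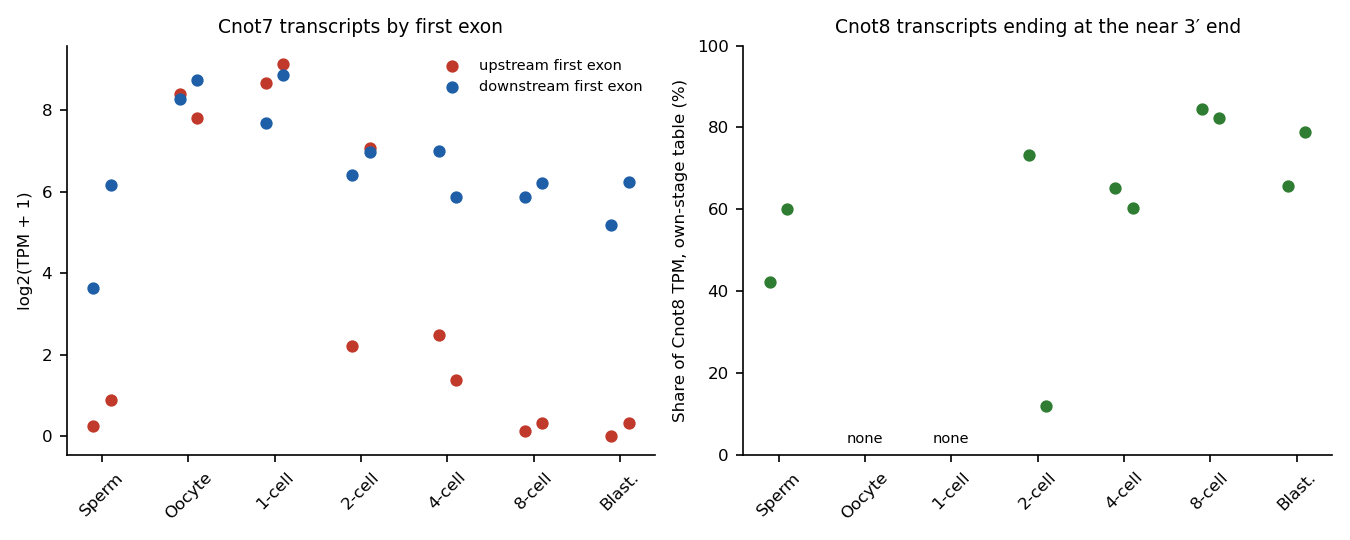
Left, TPM of the Cnot7 transcripts with the upstream and the downstream first exon in each of the 14 libraries, on a log2(TPM + 1) scale; right, percent of Cnot8 TPM assigned to the near 3′ end in each library, marked as none where the stage's long reads had no such end. The upstream Cnot7 form makes 34.7% to 66.2% of the pair in oocytes and 1-cell embryos and 3.49% or less from the 4-cell stage on, and the near Cnot8 end takes 60.3% to 84.4% from the 4-cell stage on.

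The isoforms of other members were described too. Among the merged Btg4 forms, the full-length one (5 exons, 1538 bases) made most of the TPM, and the other 2 were 45 and 48 bases shorter. In the stage's own quantification TPM was spread over more forms. In oocytes the 1538-base form held 2029 and 1998 of 3365 and 12239 TPM, and a 1274-base form 0 and 6948 TPM. A 1216-base form ending at 51119605 held 3530 and 856 of 4669 and 1144 TPM in 1-cell embryos. Btg4 long reads ended at several places, among them 51119605 to 51119608, which lies 15 to 18 bases after the AATAAA shown above, and 51119917 to 51119927. Dcp1a was split unevenly between oocyte libraries: its 5′ piece stood at 33.8 and 586 TPM and its 2-exon 3′ piece at 482 and 1034 TPM, against 432 and 102 TPM and 104 and 13.8 TPM in 1-cell embryos. Usage of the 5′ piece changed by 4.11 from oocyte to 1-cell and did not pass (adjusted p = 0.163). TATTTAT, a core AU-rich element, was in the last exon of the 4 Cnot7 transcripts and of the single-exon Dcp1a piece. The Cnot7 transcripts share the same 3′ end. The motif was not in the other Dcp1a pieces, Dcp2, Ythdf2 or Cnot6l, and was not scored for Cnot8, Pabpn1l and Btg4. Of 13573 merged transcripts 13.3% have it.

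Genes with a course like that of Btg4 and Cnot6l were sought among 8633 genes by Pearson's r of log2(TPM + 1) across all 12 oocyte and embryo libraries, as a description with no test, since genes share libraries. Ggct (r = 0.995), Cmya5 (0.993) and Fam13c (0.990) were nearest to Btg4, and their mean levels went from 758, 826 and 3300 TPM in oocytes to 18.3, 4.45 and 14.1 TPM in 4-cell embryos. Ranbp9 (0.984), Gm2101 (0.977) and AI987944 (0.972) were nearest to Cnot6l.

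The rest of the decay machinery was given by 8 lists of 87 genes, of which 78 were tested. From egg and 1-cell to 4-cell and 8-cell embryos 35 of them rose and 18 fell, where 46.2% of all genes rose and 22.1% fell. After quantile normalization 26 rose and 25 fell, where 33.2% and 32.1% of all genes did. From 1-cell to 2-cell 17 rose and 3 fell, beside 26.1% and 6.2% of all genes, or 11 and 10 after quantile normalization, beside 15.9% and 17.6%. Over all 78 genes, the counts of the first comparison lay near the shares of all genes. The counts of each list below are from this comparison and stand beside the same shares.

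Within CCR4-NOT and the BTG/TOB adaptors 6 of 13 genes rose and 3 fell, or 4 and 4 after quantile normalization, near the shares of all genes. Cnot1, the scaffold that holds the nucleases, rose from 0.488 TPM in oocytes to 81.7 TPM in 4-cell embryos (log2 change 4.95 ± 0.60, adjusted p = 7.29e-06), and Cnot10, which binds another end of the scaffold, rose by 3.74. Tob2, an adaptor related to BTG4, fell by 3.64 on the log2 scale. Of 8 other deadenylase genes 4 fell and 2 rose, where 22.1% and 46.2% of all genes did. Angel2 fell by 4.20, and Toe1 (3.12) and Pnldc1 (3.06) rose.

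Of 17 other decapping and 5′ to 3′ decay genes 7 rose and 5 fell, or 6 and 7 after quantile normalization. Lsm4 (5.47) and Lsm6 (3.95), which encode Lsm ring subunits, rose, and Lsm14b fell by 3.84. Lsm3, Lsm5 and Lsm7 were also called higher, while Lsm1 and Lsm2 were not called. Lsm1 changed by -0.76 (limma, adjusted p = 0.17), or by -1.31 after quantile normalization (adjusted p = 0.015). A rise of the ring as a whole is thus not shown. Of 7 other AU-rich element binding proteins 3 rose, among them Hnrnpd (3.08) and Tial1 (2.72), and 2 fell, among them Auh (-2.65).

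The other m6A factors included 3 of 11 that rose and 3 that fell, or 1 and 5 after quantile normalization. Igf2bp1, a reader that stabilizes mRNA, rose by 3.96. Ythdf3, a paralogue of Ythdf2, went from 247 TPM in oocytes and 495 TPM in 1-cell embryos to 35.2 TPM in 4-cell embryos and fell by 3.66. Ythdf1 rose by 1.99 (adjusted p = 0.00181), a call that quantile normalization removed (0.71, adjusted p = 0.163). Among these 3 YTHDF paralogues, Ythdf2 and Ythdf1 were thus called higher and Ythdf3 lower, with both rises lost after quantile normalization.

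Of 4 other poly(A)-binding proteins 2 rose and 1 fell, where 46.2% and 22.1% of all genes did. Pabpc1, the cytoplasmic protein of somatic cells, went from 4.59 TPM in oocytes to 538 TPM in 4-cell embryos (log2 change 7.40 ± 0.49, adjusted p = 7.80e-08), although reads of its processed copies may be counted with it. Pabpn1, the nuclear relative of Pabpn1l, rose by 2.44, while Pabpc1l, the egg form, fell by 3.28. Pabpc1l was highest in 1-cell embryos, at 68.8 TPM against 4.60 TPM in oocytes.

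All 3 tested genes of the list of terminal uridyltransferases and Dis3l2 were called higher, where 46.2% of all genes rose. Tut4 rose by 2.79, Tut7 by 2.44 and Tut1 by 1.55, and Tut4 alone was kept after quantile normalization. Tut4 stood at no more than 0.670 TPM in the oocyte and 1-cell libraries. Of 15 exosome and SKI genes, which degrade mRNA from the 3′ end, 9 rose and 0 fell, or 8 and 2 after quantile normalization, where 46.2% of all genes rose and 22.1% fell (33.2% and 32.1%). Exosc5 (5.59), Wdr61 (5.43) and Dis3 (3.79) had the greatest rises on this list.

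**Figure D4:**
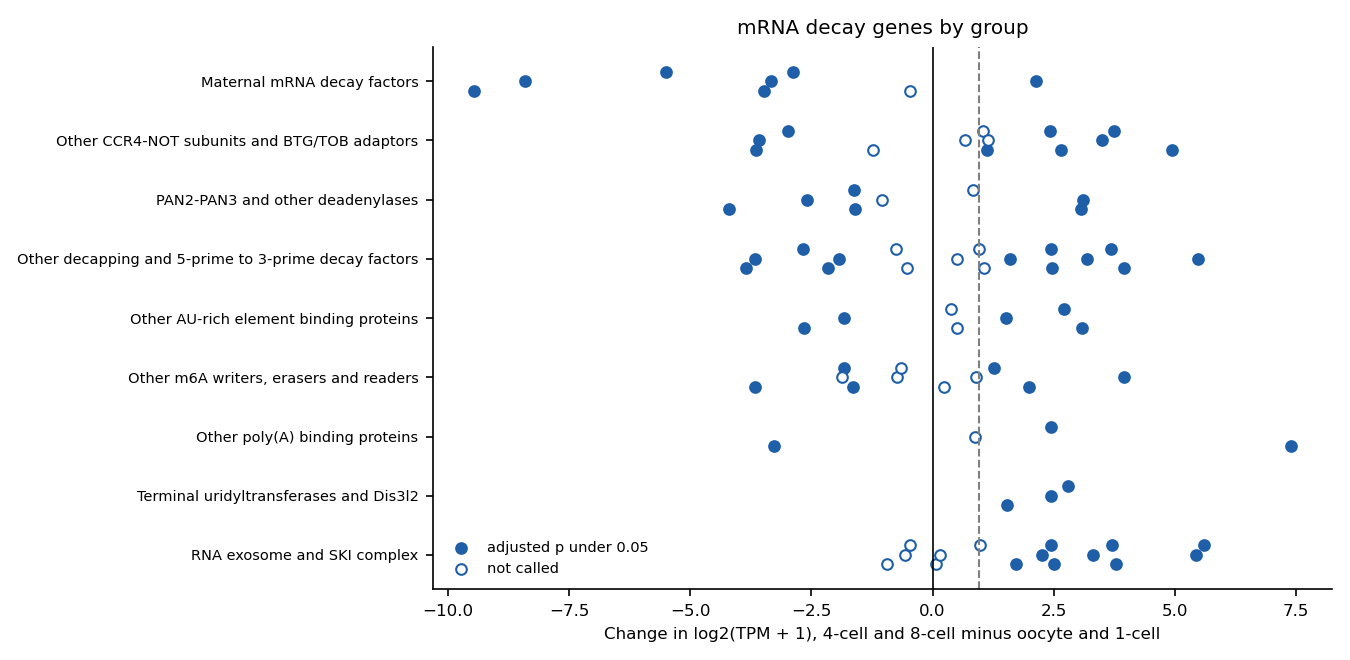
Log2 change from oocyte and 1-cell to 4-cell and 8-cell libraries for every tested gene of the 8 measured factors and the 8 further lists, on the log2(TPM + 1) scale, with filled points for genes called at an adjusted p below 0.05 and a dashed line at the median of all tested genes (0.95). Of the 8 factors 6 lie among the called falls, and 9 of 15 exosome and SKI genes are called higher, where 22.1% of all genes fell and 46.2% rose.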

How the data were processed

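RNA of 7 stages, copied by Smart-seq2, was measured in 14 short-read libraries and 7 long-read pools. The authors assembled and merged PacBio transcripts on mm10 and quantified them with Salmon, and the deposited values are TPM per transcript, in one table of merged transcripts and in one per stage. The submitters' notes also name GSNAP, STAR and Cufflinks. TPM holds no read depth, and no counting interval is given. The samples were said to be 2 batches per stage, and p-values measure only the spread between these libraries. For the 8-cell stage the sample titles and the names of the submitted data gave opposite replicate numbers. The titles were followed, and which is right is not known. Of 22612 merged transcripts 18333 were given to a gene by same-strand exon overlap with GENCODE vM21.

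Stages were compared with limma 3.58.1 (R 4.3.3, trend, stage as the only term, 12 libraries from oocyte to blastocyst, sperm described without a test) on log2(TPM + 1) for 10000 genes with at least 1 TPM in at least 2 libraries, with Benjamini-Hochberg adjustment over all of them. Fold values on this scale understate changes of low genes. The procedure was run on simulated data in which every gene had the median replicate spread of its stage. This does not show how it calls genes with larger replicate differences, such as Btg4 and Dcp1a at the 2-cell stage. Python 3.11.15 with pandas 2.3.3 was used for the rest. The alternatives were another pseudocount, filter, normalization, gene assignment, weighting, set of libraries and replicate block, and each replicate left out. The correlation of same-numbered replicate differences between neighbouring stages ran from -0.33 to 0.48, so the numbers were not taken to pair samples. All 10 genes are named, and of each further list up to 3 called genes with the greatest change. The members and lists were chosen with earlier results of these data known. Protein sequences were not used here, and genome sequence only as the RefSeq promoter windows.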

Additional observations from a re-analysis of the deposited data

How the results depend on the processing

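The comparison of oocyte and 1-cell with 4-cell and 8-cell libraries called 7 genes of the group and between 6 and 7 in each alternative, leaving out a replicate included. The steps from oocyte to 1-cell and from 8-cell to blastocyst called 0 in every alternative. The step from 1-cell to 2-cell called 4, but 1 (Pabpn1l) when only the compared libraries were fitted or the spread was weighted by stage, and 1 to 5 with a replicate left out. That from 2-cell to 4-cell called 0, but 1 (Dcp2) with a filter of 5 TPM or quantile normalization, and 0 to 2 with a replicate left out (Btg4 and Cnot6l without 2-cell replicate 1, Dcp2 without replicate 2). That from 4-cell to 8-cell called 0, but 2 (Btg4, Pabpn1l) when only the compared libraries were fitted and 4 (with Cnot6l and Cnot8) under weighting, where 3169 and 3921 of all 10000 genes were called in place of 167. From 1-cell to 2-cell the direction reversed for Cnot6l without 2-cell replicate 1 (from -2.07 without 2-cell replicate 2 to 0.62) and for Cnot8 under quantile normalization (-0.037). Isoform usage over neighbouring steps called 0, but 5 under weighting (3 of Btg4 and 2 of Cnot8), 0 to 4 with a replicate left out and 6 in the pooled comparison added after seeing the data. With the replicate number as a replicate block the calls were 3 from 1-cell to 2-cell, Cnot7 being lost (adjusted p = 0.0585), and 7 in the pooled comparison. Over all tested genes the 1-cell to 2-cell step called 3227, against 1084 with only the compared libraries and 1531 under weighting. The causes were not tested. Of 34 gene levels also measured in the table of their own stage, 22 lay within 1 SD and 12 moved further. The TPM values do not show how many reads lie behind low levels such as those of Btg4 and Pabpn1l in 8-cell embryos.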

Other observations

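The locus of Zfp36l1 held a 2-exon merged transcript on the opposite strand, assigned to Gm26669. It stood at 39.7 and 153 TPM in the sperm libraries and at no more than 14.7 TPM in any other library. Sperm libraries also held the epididymal genes Crisp1 and Lcn8 at a summed 2014 and 338 TPM, and their part in this level was not tested.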
